A study of Mus musculus with 6 samples.

Results

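The kallikreins are a family of secreted serine proteases, and the clade B serpins are intracellular serine and cysteine protease inhibitors. They are described here together with Spink5, which encodes the kallikrein inhibitor LEKTI. The group was taken by name, as every symbol that starts with Klk or Serpinb followed by a digit, plus Spink5. This gave 55 of the 24063 gene symbols in the deposited counts, 27 kallikreins, 27 clade B serpins and Spink5. Of these, 51 had a count in at least 1 library, and 31 passed the filter on low counts and were tested (12 kallikreins, 18 serpins and Spink5). Which members pass depends on the group where they are high, so the counts below speak of the genes tested.

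RNA was sequenced from the penile tumors of 3 SA mice (PB-Cre+ Smad4L/L ApcL/L) and from 3 samples of normal penile epithelium of wild type C57BL/6 mice (WT penis), all 5 months old. In SA mice, loxP-flanked Smad4 and Apc alleles are deleted by a Cre recombinase under the androgen-responsive probasin promoter (the PB-Cre4 line), and the tumors formed without a carcinogen. The WT mice carry neither the Cre nor the floxed alleles, so that the comparison holds the deletions, the transgene and the tumor together. It also holds any difference in strain, since the study's text names no strain background for the SA mice. The labels give the number of SA mice but not of WT mice, while the study describes the samples of both genotypes as biological. The p-values measure the spread between these samples.

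In stratified squamous epithelium, kallikreins are made by the upper living layers and released between the cells, where Klk5, Klk7 and Klk14 are known to cleave the corneodesmosome proteins that hold the cornified cells together. LEKTI, the product of Spink5, is cut into fragments that inhibit these proteases, and its loss in humans causes Netherton syndrome, a disease of excessive shedding. Clade B serpins act inside the cell or after its lysis. They trap a protease by offering it an exposed reactive centre loop as bait, and the sequence of that loop decides which protease is caught. The human relatives of mouse Serpinb3 are the squamous cell carcinoma antigens.

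The gene rows held 23828283 to 32871142 counts in 5 libraries and 110509147 in SA tumor replicate 3, and a count of 3 stood for 0.0244 to 0.137 CPM (counts scaled by TMM to a common library size), which covers counting error only. Smad4 was at 36.6, 36.1 and 46.1 CPM in the SA tumors and at 61.2, 69.7 and 72.5 in the WT penises, and Apc at 253, 194 and 197 CPM in the tumors and 62.5, 85.3 and 91.1 in the WT penises. These counts cover the whole transcript and not the deleted exons alone, so they do not check the genotype. Basal squamous markers (Krt5, Krt14, Trp63 and Itga6) summed to 8745 to 10941 CPM in SA tumors and 15083 to 18353 in WT penises, so that both tissues held squamous epithelium. The 7 spinous and granular markers analysed summed to 11962 to 19356 and 46639.9 to 52539 CPM, most of it Krt1 and Krt10. Of these 7 markers 4 were lower in SA tumors, Casp14 was higher, and Tgm1 and Tgm3 did not pass. Smooth muscle markers (4 of 4 lower in SA tumors) summed to 25 to 97.8 and 1276 to 1709 CPM, and granulocyte markers (5 of 6 tested higher) to 1490.4 to 2537 and 68.5 to 173. S100a8 and S100a9 made up most of the granulocyte sum in SA tumors. Ltf of that list did not pass, and Ngp and Camp were at or below 0.26 CPM and not tested. The 4 leukocyte markers tested (Ptprc, Cd3e, Cd68 and Itgam) did not pass. By the test described below, 17.5% of all genes were lower and 20.1% higher. Markers of prostate and accessory glands summed to at most 2.55 CPM, and Pbsn had no count in any library. In such bulk samples, fewer cells of a type and less RNA per cell cannot be told apart, and the part of tissue composition in the results below was not tested.

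Most of the tested kallikreins and the larger part of the tested serpins were lower in SA tumors, and a few members of each family were much higher. Among the 12 kallikreins tested, 2 rose (Klk6 and Klk7), 8 fell and 2 (Klk5 and Klk9) did not pass the test. Among the 18 clade B serpins, 6 rose, 10 fell and 2 (Serpinb6a and Serpinb9) did not pass. Spink5 fell. The test was edgeR's quasi-likelihood F-test at a Benjamini-Hochberg adjusted p under 0.01 over 16336 genes, by which 20.1% of all genes rose and 17.5% fell. With library totals in place of TMM, the split over all genes moved from 3283 higher and 2865 lower to 5248 and 1806, and that of the kallikreins to 3 and 7. The further threshold of 2 on the log2 scale, in either direction, was also passed by 2 kallikreins and 4 serpins that rose, against 9.41% of all genes, and by 4 kallikreins, 4 serpins and Spink5 that fell, against 3.59%. The median log2 fold change was -1.85 over the kallikreins tested and -0.74 over the serpins, beside 0.03 over all genes. In 30 of the 31 members tested, no SA value overlapped a WT value in CPM, as in 63.4% of all genes tested. Klk9 was the exception. On the deposited TPM scale, Serpinb3a, Serpinb2 and Serpinb6a overlapped as well.

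**Figure D1:**
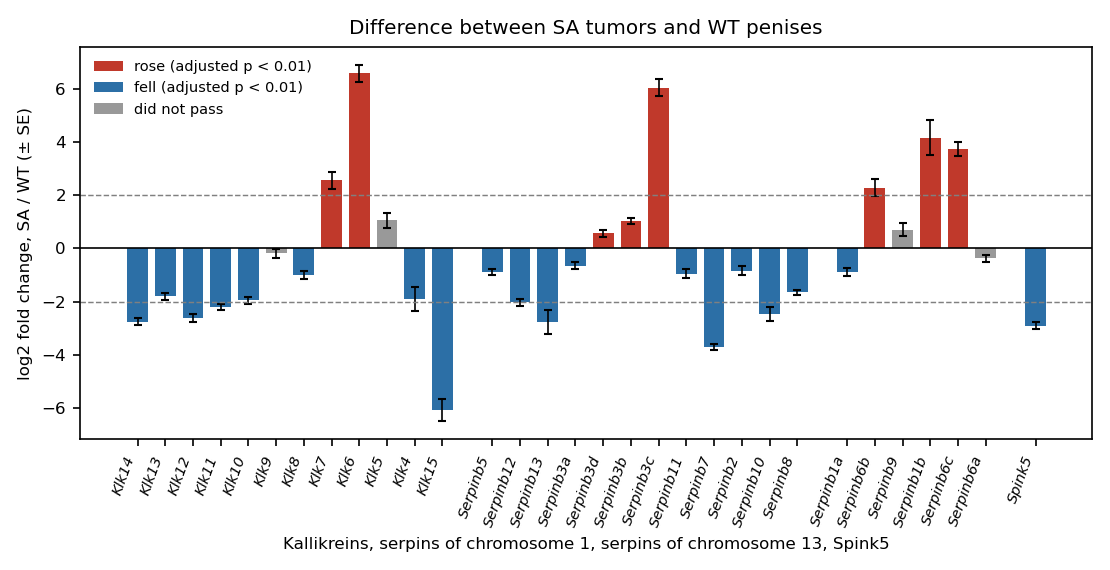
Log2 fold change of SA tumors over WT penises (vertical axis, bars, with the standard error) for the 31 members tested, ordered along their chromosomes within each group. Dashed lines mark a log2 fold change of 2 in either direction. Klk6 at 6.58 and Serpinb3c at 6.04 are the tallest bars, and Klk15 at -6.08 is the lowest.

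Both increases lay in 1 stretch of the kallikrein locus. Klk6 (NM_011177, chromosome 7, 43824438 to 43832027, plus strand in mm10), which encodes the trypsin-like protease neurosin, was at 57.9, 80.6 and 42.2 CPM in SA tumors and at 0.633, 0.501 and 0.775 CPM in WT penises. It was under 1 CPM in every WT penis and far above that in every tumor, a 95.7-fold difference (log2 fold change 6.58, standard error 0.317, adjusted p = 2.76e-06). Klk7 (NM_011872, chromosome 7, 43811294 to 43816387, plus strand) encodes the chymotrypsin-like kallikrein of the cornified layer. It was at 182, 236 and 101 CPM in SA tumors and at 36.1, 26.5 and 25.7 in WT penises, and rose 5.88-fold (log2 fold change 2.56, standard error 0.318, adjusted p = 0.000506). The third gene of the stretch is Klk5, whose product can activate itself and then Klk7 and Klk14. Klk5 was at 29.4, 44.3 and 19.6 CPM in SA tumors and at 17, 15.5 and 12.2 in WT penises, with every tumor above every WT penis, and did not pass the test (log2 fold change 1.06, standard error 0.287, adjusted p = 0.016). It passed without SA tumor replicate 3 (log2 fold change 1.31, adjusted p = 0.00121), with DESeq2 (adjusted p = 0.000561) and with library totals (adjusted p = 0.00414). Klk7, Klk6 and Klk5 follow each other directly among the members on chromosome 7, with Klk8 before and Klk4 after them.

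**Figure D2:**
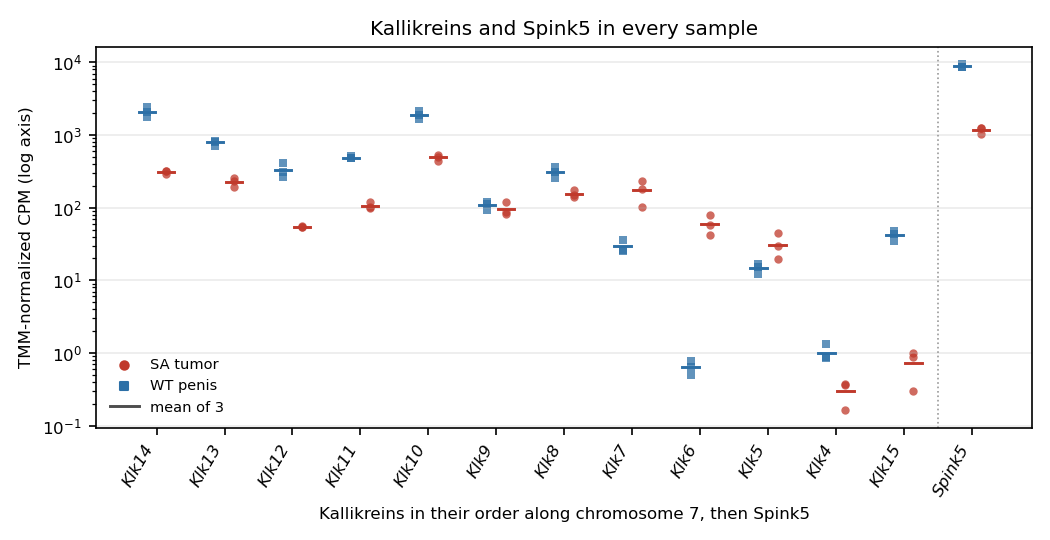
TMM-normalized CPM (log axis) of the 12 kallikreins tested, in their order along chromosome 7, and of Spink5, in each SA tumor (circles) and WT penis (squares), with the mean of 3 as a line. Klk7, Klk6 and Klk5 have the tumors above the WT penises, Klk9 overlaps, and every other gene shown has them below.

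The 6 kallikreins with the highest TPM (the deposited length-scaled values) in WT penises were Klk14, Klk10, Klk13, Klk11, Klk12 and Klk8. All 6 fell, as did 17.5% of all genes. A ranking by the WT level favours genes that are lower in the tumors, so this is a description. Klk14 (NM_174866, chromosome 7, 43680880 to 43695536, plus strand), a trypsin-like kallikrein of the cornified layer, was at 2404, 2053 and 1796 CPM in WT penises and at 323, 318 and 290.1 in SA tumors, 6.72-fold lower (log2 fold change -2.75, standard error 0.14, adjusted p = 3.03e-06). Klk10, whose product has little known protease activity, was at 2172, 1884 and 1669.8 CPM in WT penises and at 445, 539 and 496 in SA tumors (log2 fold change -1.95, standard error 0.138, adjusted p = 1.32e-05). In both genes the 3 values of a group lay close together and the groups were far apart. Klk13 was at 839.5, 815 and 716 CPM in WT penises and at 195, 233 and 255 in SA tumors (log2 fold change -1.80, standard error 0.132, adjusted p = 1.57e-05). Klk11 went from 477, 508 and 479 CPM in the WT penises to 101, 119 and 99.3 in the tumors (log2 fold change -2.20, standard error 0.109, adjusted p = 2.78e-06). Klk12 had 408, 313 and 267 CPM in WT penises and 53.7, 53.4 and 55.2 in SA tumors (log2 fold change -2.61, standard error 0.158, adjusted p = 6.09e-06). These 5 genes lie next to each other at one end of the locus, from Klk14 to Klk10, and fell by log2 fold changes between -2.75 and -1.80.

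The next 2 genes along the locus differed less. Klk9 was at 80.9, 119.8 and 86.9 CPM in SA tumors and at 122, 114 and 92.5 in WT penises, with overlapping groups, and did not pass (log2 fold change -0.19, standard error 0.168, adjusted p = 0.371). Its direction turned to 0.10 with library totals in place of TMM, and on the TPM scale it was at 115 ± 21.4 in SA tumors against 101 ± 9.38 (SD, n = 3 each). Klk8, which encodes neuropsin, a trypsin-like protease of skin and brain, was at 151, 175 and 139.7 CPM in SA tumors and at 368, 312 and 258 in WT penises and fell 2.02-fold (log2 fold change -1.01, standard error 0.149, adjusted p = 0.000633). At the other end, Klk15 (NM_174865, chromosome 7, 43929405 to 43940035, plus strand) had the largest decrease of all members. It was at 47.4, 44 and 34.9 CPM in WT penises and at 0.892, 0.993 and 0.3 in SA tumors, 67.9-fold lower (log2 fold change -6.08, standard error 0.422, adjusted p = 2.23e-05), so that a gene of moderate level in every WT penis fell to 1 CPM or less in every tumor. The log2 fold change was -5.47 without SA tumor replicate 3. Klk4, the protease of maturing tooth enamel, stayed at or below 1.31 CPM in all libraries and fell by a log2 fold change of -1.90 (adjusted p = 0.00656). Its adjusted p was 0.0136 without SA tumor replicate 2, 0.0162 without SA tumor replicate 3, 0.0303 without WT penis replicate 1, 0.0175 without WT penis replicate 2 and 0.0158 without WT penis replicate 3, with log2 fold changes from -2.11 to -1.44, and 0.0125 with library totals.

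Exons of Klk14 and Klk8 overlap the gene model 2310002F09Rik, and those of Klk15 the gene model Gm44756, each on the opposite strand in GENCODE. 18.4%, 24.6% and 34.7% of the 76-base stretches of the 3 transcripts also occur in another gene, on either strand. The libraries were stranded, but the strand setting of the counting is not given in the sources used here, and reads of such pairs could then not be told apart. 2310002F09Rik was at 1.67, 1.46 and 2.38 CPM in SA tumors and at 17.4, 16.6 and 17 in WT penises. The other 9 kallikreins tested share no such stretch with another gene.

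The glandular kallikreins were at or near the floor of the depth in both tissues. These are Klk1, the tissue kallikrein that releases kinins, and its 14 mouse-specific Klk1b relatives, which salivary gland expresses. None of the 15 passed the filter, 3 of them had no count in any library, and the highest count in any library was 10, for Klk1 in the deepest library. The 15 genes together summed to 0.111 to 0.166 CPM in SA tumors and 0.228 to 0.678 in WT penises. A count of 0 allows up to 3 counts, 0.0244 to 0.137 CPM. These paralogs are similar enough that reads can be split between them.

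Levels of different genes were compared per transcript length, on the deposited TPM scale. The 27 kallikreins together reached a TPM of 2340.3 ± 151 in the tumors, against 6749.8 ± 459 in the WT samples (SD, n = 3 each). In WT penises Klk14 made up 33.2% ± 0.696 of that sum, followed by Klk10 at 28.5% ± 0.26 and Klk13 at 15.5% ± 0.835 (SD, n = 3). In SA tumors Klk10 came first, at 27.6% ± 1.55, ahead of Klk14 at 18.6% ± 1.7 and Klk13 at 16.7% ± 2.65. The tumor shares of Klk14 (17.0% to 20.4%) and Klk13 (15.1% to 19.8%) overlapped. The Klk10 shares of the 2 groups overlapped. Klk5, Klk6 and Klk7 together held 13.7%, 15.7% and 8.42% of kallikrein TPM in the SA tumors and 0.626%, 0.570% and 0.581% in the WT penises. These 3 were singled out after their values were seen, and the shares are a description.

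**Figure D3:**
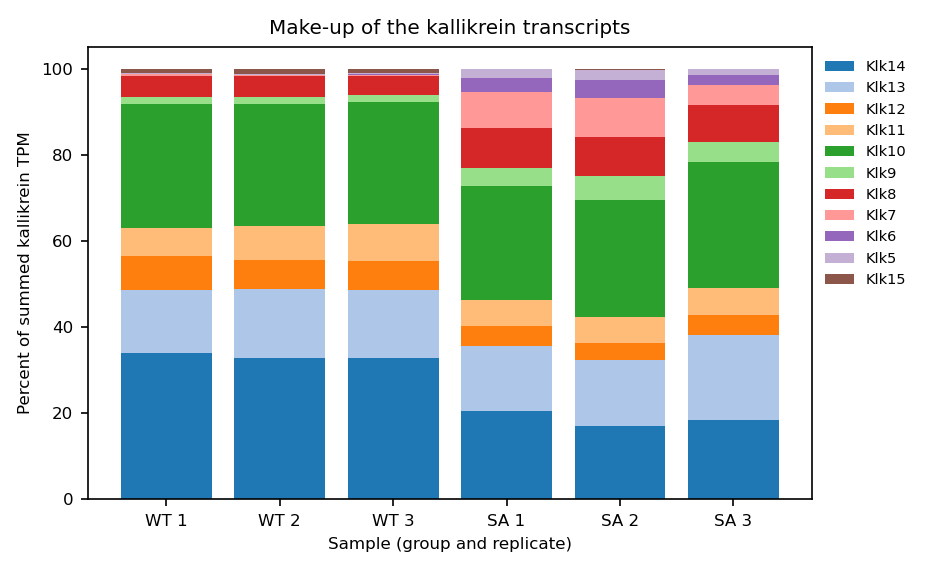
Share of each kallikrein in the summed kallikrein TPM (percent, vertical axis) in the 3 WT penises and the 3 SA tumors. Genes with under 0.05% in every sample are not drawn. The 3 WT bars are alike, with Klk14 at 32.7% to 34.0%, and in the SA bars Klk5, Klk6 and Klk7 take 8.42% to 15.7%.

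Spink5 had the highest TPM of all members in WT penises. It was at 9418, 8626 and 8619 CPM there and at 1261, 1039 and 1257 CPM in SA tumors. All 3 tumors lay far below all 3 WT penises, 7.5-fold lower (log2 fold change -2.91, standard error 0.138, adjusted p = 2.43e-06). On the TPM scale it went from 2555 ± 47.1 to 442 ± 60.4 (SD, n = 3 each). The ratio of summed kallikrein TPM to Spink5 TPM was 2.82, 2.72 and 2.39 in WT penises and 4.72, 6.74 and 4.73 in SA tumors. For Klk7 alone that ratio was 0.0105, 0.00839 and 0.00813 against 0.394, 0.621 and 0.22, and for Klk5 0.00694, 0.00691 and 0.00545 against 0.0897, 0.164 and 0.0598. Klk14, the third of these proteases, fell along with Spink5, from a TPM of 2240 ± 192 to 433 ± 19.9 (SD, n = 3 each). Each of the 3 ratios was higher in every tumor than in every WT penis, and the two-sided exact permutation p was 0.1, the smallest that 3 samples against 3 can give. For Klk7 and Klk5 that outcome was fixed by the TPM values, since both were higher and Spink5 lower in every tumor than in any WT penis. Klk7 and Klk5 were also singled out after their values were seen, so their ratios are a description.

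Mice have 4 Serpinb3 genes, named Serpinb3a to Serpinb3d, in a row on the minus strand of chromosome 1. Their coding sequences in GENCODE are 86.2% to 93.4% identical in pairs. The reactive centre loop of serpins lies near the carboxy end, and the 60 coding bases in which the 4 genes differ most, also toward that end, are shown for that reason. They lie in the last exon of each gene, at coding bases 1010 to 1069 (chromosome 1 of GRCm38, 107046111 to 107046170 in Serpinb3a, 107078288 to 107078347 in Serpinb3d, 107154464 to 107154523 in Serpinb3b and 107271721 to 107271780 in Serpinb3c). Of these positions 32 differ between at least 2 of the genes, against a median of 9 over all windows of this length. Capitals mark the positions that differ, 5′ to 3′ on the coding strand.
Serpinb3a: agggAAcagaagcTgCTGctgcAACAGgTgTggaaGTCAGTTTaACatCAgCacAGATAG
Serpinb3b: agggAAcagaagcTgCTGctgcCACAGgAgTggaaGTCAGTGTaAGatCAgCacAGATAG
Serpinb3c: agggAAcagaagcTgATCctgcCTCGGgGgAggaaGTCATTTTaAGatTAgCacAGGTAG
Serpinb3d: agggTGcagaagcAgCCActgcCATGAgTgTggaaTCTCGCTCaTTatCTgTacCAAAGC

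The 4 genes differed in direction: 3 rose and Serpinb3a fell. Serpinb3c (NM_201363, chromosome 1, 107271201 to 107278371, minus strand) was at 22.3, 28 and 20.6 CPM in SA tumors and at 0.316, 0.2 and 0.592 in WT penises. Its WT counts were 7, 6 and 13, and it rose 65.7-fold (log2 fold change 6.04, standard error 0.317, adjusted p = 3.37e-06). Serpinb3b was at 109, 97.9 and 122 CPM in SA tumors and at 49.4, 55.4 and 55.4 in WT penises, 2.05-fold higher (log2 fold change 1.04, standard error 0.112, adjusted p = 0.000113). Serpinb3d rose 1.48-fold, from 85.5, 120.4 and 103 CPM in WT penises to 162, 143 and 152 in SA tumors (log2 fold change 0.57, standard error 0.132, adjusted p = 0.00695). The call of Serpinb3d was lost when 1 of 5 libraries was left out, with an adjusted p of 0.0194 without SA tumor replicate 1, 0.0145 without SA tumor replicate 2, 0.0148 without SA tumor replicate 3, 0.0167 without WT penis replicate 1 and 0.0242 without WT penis replicate 3. Serpinb3a, the clade B serpin with the highest TPM in both tissues, fell from 1445, 1665 and 1503 CPM in WT penises to 1019.8, 819.8 and 1109 in SA tumors (log2 fold change -0.65, standard error 0.138, adjusted p = 0.0044). Its adjusted p was 0.0117 without SA tumor replicate 2 and 0.0234 without WT penis replicate 2, and 0.0529 with library totals, and its direction turned when libraries were scaled to the basal epithelial markers (log2 fold change 0.13). That scaling moved the median of all genes to 0.82, and Serpinb3a stayed below this median. Of the 76-base stretches of Serpinb3c, 2.46% occur in another gene, mostly Serpinb3b, and of Serpinb3a 8.07%. On the TPM scale Serpinb3a held 39.5% ± 2.08 of all clade B serpin transcripts in WT penises and 45% ± 3.9 in SA tumors (SD, n = 3 each).

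The other 8 serpins of chromosome 1 lie on the plus strand on both sides of the Serpinb3 genes. All 8 fell, where 17.5% of all genes fell. Serpinb7 (NM_027548, chromosome 1, 107422689 to 107452689, plus strand), whose loss in humans causes a palmoplantar keratosis, had the largest decrease. It was at 99.7, 96.1 and 100.1 CPM in WT penises and at 6.65, 7.12 and 8.66 in SA tumors, 13.1-fold lower (log2 fold change -3.71, standard error 0.128, adjusted p = 1.04e-06). Serpinb12 (NM_027971, chromosome 1, 106934449 to 106957080, plus strand), an inhibitor of trypsin-like proteases, had the second highest TPM of the serpins in WT penises and was at 1111, 1037 and 1028 CPM there. In SA tumors it was at 289.5, 263 and 228 CPM (log2 fold change -2.03, standard error 0.121, adjusted p = 5.68e-06). Serpinb13, an inhibitor of lysosomal cathepsins, was at 4.88, 7.18 and 11.9 CPM in WT penises and at 1.86, 0.662 and 1.07 in SA tumors (log2 fold change -2.76, standard error 0.441, adjusted p = 0.001). Serpinb10, also called bomapin, had 77.3, 92.9 and 146 CPM in WT penises and 15.1, 18.4 and 23.6 in SA tumors (log2 fold change -2.46, standard error 0.271, adjusted p = 0.000213). Serpinb8, whose loss in humans causes peeling skin, was at 176, 159.7 and 165 CPM in WT penises and at 53.8, 57.1 and 48.8 in SA tumors (log2 fold change -1.65, standard error 0.0995, adjusted p = 5.87e-06). In all 5 genes the lowest WT penis lay more than 2 times above the highest tumor.

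The remaining 3 decreases were smaller than 2-fold. Serpinb5, or maspin, which does not inhibit proteases, was at 442, 446 and 448 CPM in WT penises and at 274, 239 and 210.3 in SA tumors (log2 fold change -0.89, standard error 0.116, adjusted p = 0.000334). Serpinb11 was at 252, 231 and 205 CPM in WT penises and at 148, 102 and 106 in SA tumors (log2 fold change -0.95, standard error 0.158, adjusted p = 0.00122). Serpinb2, the urokinase inhibitor PAI-2, was at 155, 177 and 212 CPM in WT penises and at 128, 85.4 and 91.2 in SA tumors (log2 fold change -0.84, standard error 0.178, adjusted p = 0.00438). Its adjusted p was 0.0193 without SA tumor replicate 2, 0.0136 without SA tumor replicate 3, 0.0109 without WT penis replicate 2 and 0.0118 without WT penis replicate 3, and 0.0311 with library totals. Exons of Serpinb10 and Serpinb2 overlap on the same strand, and 11.3% of the 76-base stretches of Serpinb10 also occur in Serpinb2 transcripts.

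The promoters of the 51 members with an entry were searched for words bound by transcription factors, in the 300 bases from 250 before to 50 after each start site in the RefSeq table (GRCm38.p6), on both strands. The letters TGANTCA, which include the AP-1 word TGAGTCA, were found in 7 of the 11 chromosome 1 serpins with an entry, in none of 14 on chromosome 13 and in none of 26 kallikreins. Of all 32851 promoters, 7.81% hold these letters. That share is per start site, whereas a member with several start sites was counted if any of them matched. The 7 genes were Serpinb2, Serpinb5, Serpinb7, Serpinb8, Serpinb10, Serpinb11 and Serpinb12, all among the 9 of chromosome 1 that fell. Of the other 2 that fell, Serpinb3a does not hold the letters and Serpinb13 has no entry. The narrower TGAGTCA was in 2 of the 7, Serpinb7 and Serpinb8, against 5.20% of all promoters, and overlaps the wider word by construction. The others of the 7 hold only TGAATCA or TGATTCA, which are the same word read from opposite strands and not the AP-1 word TGAGTCA. Short stretches around the word, in capitals, show its letters on the plus strand, with 10 bases on either side.
Serpinb7, chr1:107422634-107422660, plus strand, 45 bases before the start site: agggagtgtcTGAGTCAgaggctttat
Serpinb12, chr1:106934394-106934420, plus strand, 45 bases before the start site: aaaaacaatcTGATTCAcgatcattat
Serpinb10, chr1:107528939-107528965, plus strand, 54 bases before the start site: cttgtgaaagTGAATCAagggtggggc
Serpinb8, chr1:107589973-107589999, plus strand, 23 bases before the start site: gtgggaagtgTGAGTCAcagagtgttc
The TCF/LEF word CTTTGAT, in 3.73% of all promoters, was found in 1 member, Serpinb9b. The SMAD word GTCTAGAC, in 0.213% of promoters, and the full palindromic androgen response element, in 0.00913%, were found in no member. A match is a description of the letters, and no match says only that they are not in this window.

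**Figure D4:**
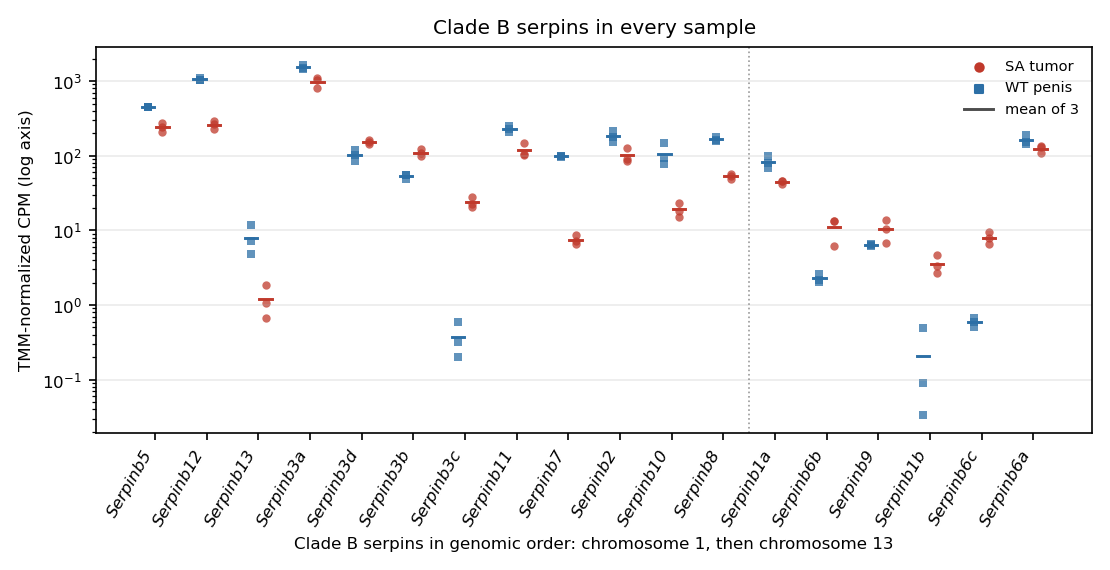
TMM-normalized CPM (log axis) of the 18 clade B serpins tested, in genomic order on chromosome 1 (left of the dotted line) and chromosome 13 (right), in each SA tumor (circles) and WT penis (squares), with the mean of 3 as a line. Serpinb3d, Serpinb3b and Serpinb3c are the members of chromosome 1 with the tumors above, and on chromosome 13 these are Serpinb6b, Serpinb9, Serpinb1b and Serpinb6c.

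On chromosome 13, 6 of the 15 serpins were tested. Serpinb6a and Serpinb1a had the highest TPM of them in WT penises. Serpinb6a, an inhibitor of cathepsin G, was at 107, 135 and 132 CPM in SA tumors and at 189, 151 and 145 in WT penises, and did not pass (log2 fold change -0.37, adjusted p = 0.0461). On the TPM scale the groups were alike, at 147 ± 16.9 and 146 ± 12.2 (SD, n = 3 each), and the log2 fold change turned to 0.43 when libraries were scaled to the basal markers, again below the median of all genes. Serpinb1a, an inhibitor of neutrophil elastase, fell from 100.2, 80.7 and 68.1 CPM in WT penises to 45.9, 42 and 45.6 in SA tumors (log2 fold change -0.90, standard error 0.143, adjusted p = 0.000948). Serpinb6c, Serpinb6b and Serpinb1b, all low in WT penises, rose. Serpinb6c was at 7.8, 9.4 and 6.52 CPM in SA tumors and at 0.678, 0.501 and 0.592 in WT penises, 13.4-fold higher (log2 fold change 3.74, standard error 0.262, adjusted p = 1.25e-05). Serpinb6b was at 13.5, 6.26 and 13.3 CPM in SA tumors and at 2.03, 2.64 and 2.14 in WT penises (log2 fold change 2.27, standard error 0.318, adjusted p = 0.000477). Serpinb1b was at 4.65, 2.68 and 3.32 CPM in SA tumors and at 0.497, 0.0334 and 0.0911 in WT penises (log2 fold change 4.16, standard error 0.652, adjusted p = 0.000899), with WT counts of 11, 1 and 2, so that the fold rests on few counts. The log2 fold change lay between 3.55 and 5.85 when each library was left out, and was highest without WT penis replicate 1, at 5.85. Serpinb9, the inhibitor of granzyme B, lay between 6.2 and 6.51 CPM in WT penises and between 6.85 and 13.7 in SA tumors. It did not pass (log2 fold change 0.70, adjusted p = 0.0404), and did without SA tumor replicate 2 (log2 fold change 0.92, adjusted p = 0.00659).

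Of the 9 serpins that were not tested, all on chromosome 13, 1 (Serpinb9d) had no count and 6 had counts in SA tumors only. The 6 were Serpinb6d, Serpinb6e, Serpinb9c, Serpinb9e, Serpinb9f and Serpinb9g. Serpinb9g, for example, had 4, 6 and 18 counts in the SA tumors and 0 in each WT penis, and Serpinb9c had 3, 1 and 25. The highest raw count of each of these 6 genes was in the third tumor library, which is the deepest, or was shared by it. Its depth makes counts in SA tumors only more likely for a gene with few counts. Among the 15 kallikreins not tested, 5 had counts in SA tumors only and 5 in WT penises only. The share over all untested genes was not counted. In CPM, Serpinb6d, Serpinb6e and Serpinb9g were highest in SA tumor replicate 2, Serpinb9e in replicate 1, and Serpinb9c and Serpinb9f in replicate 3. In Serpinb9b there were 8, 6 and 50 counts in the tumors, against 4, 0 and 1 in the WT samples, and Serpinb1c had at most 2 in any library. No fold is given for these 9 genes, since they were not tested.

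The substrates, relatives and targets of these proteins were taken from lists by function. Among 5 corneodesmosome genes, Dsc1 rose, Dsg1a and Cdsn fell, and Dsg1b and Dsg1c did not pass, beside 20.1% higher and 17.5% lower over all genes. Cdsn, which encodes corneodesmosin, was at 2099.9, 1947 and 1858 CPM in WT penises and at 588, 776 and 562 in SA tumors (log2 fold change -1.62, standard error 0.148, adjusted p = 4.86e-05). Dsc1, a desmosomal cadherin, was at 269, 336 and 345 CPM in WT penises and at 699, 461 and 459 in SA tumors (log2 fold change 0.77, standard error 0.186, adjusted p = 0.00829). The 21 other epithelial proteases had 9 members that rose and 3 that fell, with a median log2 fold change of 0.51, where 20.1% of all genes rose and 17.5% fell. The membrane protease St14 (matriptase) rose from 155, 144 and 134 to 294, 307 and 208 CPM (log2 fold change 0.90, standard error 0.154, adjusted p = 0.00135), while its partner Prss8 (prostasin) fell from 108, 99.9 and 90.8 to 32.7, 38.1 and 29.2 (log2 fold change -1.58, standard error 0.126, adjusted p = 2.36e-05). Prss22 (3.12), Tmprss11g (3.08) and Casp14 (2.19), a caspase of cornification, had the largest log2 fold changes of that list.

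Other epithelial protease inhibitors were split, with 6 of the 20 tested higher and 8 lower (median log2 fold change -0.47), against the same 20.1% and 17.5% of all genes. Spink6, like Spink5 a Kazal-type kallikrein inhibitor, fell from 256, 188 and 168 CPM in WT penises to 2.56, 2.48 and 1.64 in SA tumors, 95.1-fold lower (log2 fold change -6.57, standard error 0.256, adjusted p = 1.69e-06). Wfdc12 fell from 1045, 740.0 and 630.2 to 79.9, 69.9 and 105 CPM (log2 fold change -3.24, standard error 0.232, adjusted p = 1.47e-05), and the elastase inhibitor Slpi from 3429, 3052 and 2583 to 844, 668 and 783 (log2 fold change -1.98, standard error 0.151, adjusted p = 1.85e-05). The cysteine protease inhibitors of the list were mixed: the 4 Stfa genes rose, Cst3 fell, and Csta1, Cstb and Cst6 did not pass. Stfa2 rose from 0.316, 0.2 and 0.41 CPM in WT penises to 23.3, 16.8 and 25.7 in SA tumors (log2 fold change 6.18, standard error 0.296, adjusted p = 2.59e-06), and Stfa1, Stfa3 and Stfa2l1 rose by log2 fold changes of 1.13, 2.76 and 3.64. Reads can be shared between these paralogs. The stefin A genes are also expressed by granulocytes, of whose markers 5 of 6 tested rose in the same tumors. The part of those cells was not tested.

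Of 10 leukocyte and plasminogen proteases that clade B serpins are known to inhibit or that act beside them, 6 were tested. Gzma and Plat rose, where 20.1% of all genes rose and 17.5% fell. Gzma was at 0.271, 0.134 and 0.319 CPM in WT penises and at 5.39, 13.2 and 6.64 in SA tumors (log2 fold change 5.16, standard error 0.495, adjusted p = 6.33e-05). Plau, the urokinase that Serpinb2 inhibits, was at 40.2, 26.4 and 21.2 CPM in WT penises and at 41.7, 34.4 and 50.7 in SA tumors and did not pass (log2 fold change 0.53, adjusted p = 0.0968). The neutrophil proteases Elane, Prtn3 and Ctsg stayed at or below 0.926 CPM in every library. Among the receptors that such proteases cleave, F2rl1, which encodes PAR2 and is a known target of Klk5, fell from 51.3, 50.9 and 51.3 CPM in WT penises to 30.1, 23 and 17.9 in SA tumors (log2 fold change -1.12, standard error 0.177, adjusted p = 0.000919), and F2r and F2rl3 did not pass.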

How the data were processed

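RNA of 3 SA tumors and 3 WT penises was measured. TopHat alignment to mm10, FastQC and HTSeq counting by the authors gave the deposited raw counts, listed by RefSeq transcript and not normalized. The authors' deposited TPM values served to compare levels between genes. Tool versions and the strand setting are not given in the sources used here. Each symbol was represented by the transcript row with its highest mean count. The main test used edgeR 4.0.16 under R 4.3.3 (filterByExpr with a minimum of 10 counts, TMM, robust quasi-likelihood F-test, Benjamini-Hochberg adjustment over 16336 genes). The study used DESeq2, which was an alternative here (version 1.42.0), as was limma-voom (limma 3.58.1). Standard errors were taken as the fold change on the log2 scale, without its sign, over the square root of F. SD is over 3 samples. Promoters came from RefSeq (GRCm38.p6, the assembly that mm10 names) for 51 of the 54 kallikreins and serpins, and coding sequences and exon overlaps from GENCODE M21. The members and lists were chosen with earlier results of these data known. Members with an adjusted p under 0.01 and a mean of at least 1 CPM, or not passing with a mean of at least 20, are given in every sample. From the other lists, only some genes are named, chosen after their values were seen. Flg, Adgre1, Ly6g, Spink1 and A2ml1 were not analysed here. The methods were tested on simulated data. Alternatives were other scalings, filters, tools, summed transcript rows, a test against the fold threshold (glmTreat), a replicate block and each library left out.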

Additional observations from a re-analysis of the deposited data

How the results depend on the processing

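When each library was left out in turn, the kallikreins gave 2 to 3 higher and 7 to 8 lower calls, the clade B serpins 5 to 6 and 8 to 10, and Spink5 a log2 fold change of -2.96 to -2.82. The test against the fold threshold itself (glmTreat) kept 1 kallikrein that rose and 3 that fell, and 2 serpins that rose and 1 that fell, with 749 genes higher and 180 lower over all genes. Library totals alone, which moved the median log2 fold change of all genes to 0.31, gave 5248 genes higher and 1806 lower and a log2 fold change of 0.10 for Klk9. Scaling to the basal epithelial markers, chosen after seeing the data and used for direction only, moved that median to 0.82 and turned the direction of Klk9 (0.63), Serpinb3a (0.13) and Serpinb6a (0.43), which stayed below that median, while Spink5 was at -2.12 and Klk7 at 3.41. The shared replicate numbers did not pair the samples: the deviations of same-numbered samples had correlations of -0.135, -0.105 and 0.0238 across genes, and not every sample correlated best with its own number. With the replicate number as a block, there were 3 kallikreins higher and 7 lower, and 5 serpins higher and 8 lower. Klk5 was then called (adjusted p = 0.00419), and Klk4 (0.0105), Serpinb2 (0.0104), Serpinb3a (0.0104) and Serpinb3d (0.0148) were not. Over all genes 2809 were higher and 2446 lower, and Spink5 kept its log2 fold change of -2.91. DESeq2, limma-voom, RLE and upper-quartile scaling, both other filters and summed transcript rows lost no call of a member they tested, and DESeq2 added Klk5. Without the filter on low counts, 9 kallikreins were lower and 7 serpins higher. The calls added there were of members with few counts that the main test left out. With a mean of at least 50 counts, Klk4 was not tested. Depth limits the statements on Klk1, the Klk1b genes and the untested chromosome 13 serpins, which had few counts.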

Other observations

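Within the SA tumors, Klk5, Klk6 and Klk7 were each highest in replicate 2 and lowest in replicate 3, by a factor of about 2 (for Klk7, 236 and 101 CPM). Of the 7 spinous and granular markers analysed, 6 had the same order, and Ivl was lowest in replicate 1. Lor, which encodes loricrin, was at 489.9, 745 and 458 CPM in SA tumor replicates 1 to 3, Krt1 at 5846, 8614 and 5284 and Casp14 at 91, 116 and 82.5. Of the kallikreins that fell, Klk8, Klk11 and Klk15 also had this order (for Klk15, 0.892, 0.993 and 0.3 CPM), as did Serpinb3c, Serpinb6c and Serpinb8. Klk14, at 310.4 ± 17.8 CPM, and Klk12, at 54.1 ± 0.993 (SD, n = 3 each), did not. With 3 tumors, no relation between these genes was tested. Against WT penises, Lor and Krt1 fell (log2 fold changes -2.28 and -1.63, adjusted p = 5.00e-05 and 0.000225 in edgeR's test), whereas Casp14 rose (2.19, adjusted p = 1.57e-05).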
